A study of Homo sapiens with 4 samples.

Results

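Actins, myosins and tubulins build the cytoskeleton, and their transcripts were followed here in RNA recovered with beta-catenin from the nuclei of 2 human colon adenocarcinoma lines. Genes were taken by symbol: cytoplasmic actins, alpha-actinins, actin-related proteins and ARPC subunits, cofilins, profilins, tropomyosins, myosin heavy and light chains, unconventional myosins, and alpha-, beta- and gamma-tubulins with the gamma-tubulin complex proteins; entries classed as pseudogenes were left out. The choice gave 60 of the 10098 gene names in the deposited tables. In HT-29 it covered 91 of 9880 listed transcripts from 43 of 6489 gene names, and in CaCo-2 101 of 11943 transcripts from 50 of 7452 gene names. The 4 libraries were the HT-29 RIP and the CaCo-2 RIP, made with a Bethyl beta-catenin antibody, and the HT-29 input and the CaCo-2 input, made without antibody. RIP, RNA immunoprecipitation, pulls a protein down from a lysate and sequences the RNA that comes with it. All cells were untreated, all RNA came from nuclear lysate, and each group was 1 library, so no value below has a replicate error and no difference was tested. A precipitation with an unrelated antibody was not used here.

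Actin monomers polymerise into filaments. The Arp2/3 complex, made of ACTR2, ACTR3 and the ARPC subunits, starts branches on them; cofilin severs them, profilin feeds them with monomers, tropomyosins coat them, alpha-actinins cross-link them and myosins pull on them or carry cargo along them. Alpha- and beta-tubulin pair into the building block of microtubules, which grow from gamma-tubulin ring complexes. Beta-catenin touches this system at the adherens junction, where it joins cadherin to alpha-catenin and so to actin, and in the nucleus it co-activates Wnt target genes.

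The tables list RNA per annotated transcript in FPKM, fragments scaled for transcript length and library size. Each holds only transcripts whose RIP level was 1.5-fold or more that of input, so a higher RIP level is a property of the table and not a result about cytoskeletal genes. RIP levels began at 1.31 FPKM in the HT-29 table and at 0.842 in the CaCo-2 one, so the tables start at different levels. The comparison that is left is how far above input each transcript lay. The ratio used is the log2 quotient of RIP and input FPKM, each plus 1, which understates the ratio of low transcripts. In HT-29, 49 of the 91 transcripts (53.8%) stood 2-fold or more above input on this scale, beside 56.0% of all listed transcripts. In CaCo-2, 87 of the 101 reached the minimum of 1 FPKM in either library, and 36 of the 87 (41.4%) were at least 2-fold higher, beside 40.8% of all listed transcripts that reached it. The median log2 ratio was 1.08 for the cytoskeletal transcripts and 1.14 for all listed ones in HT-29. In CaCo-2 these medians were 0.87 and 0.82. Both shares lay near those of the whole table, so the group as a whole did not stand out by its ratio.

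An input listed at 0 makes a transcript pass 2-fold once it reaches 1 FPKM in the RIP. An input of 0 was listed for 26 cytoskeletal transcripts in each line, 28.6% of the cytoskeletal entries of HT-29 and 25.7% of those of CaCo-2, beside 31.8% and 29.0% of all listed transcripts. With input above 0, 23 of 65 cytoskeletal transcripts were at least 2-fold higher in HT-29 (35.4%, beside 35.5% of all) and 12 of 63 in CaCo-2 (19.05%, beside 19.5%). With at least 1 FPKM on both sides, HT-29 had 12 of 36 (33.3%, beside 25.2%) and CaCo-2 3 of 31 (9.68%, beside 13.1%). A 0 belongs to the annotated isoform and not to the gene: of the 26 HT-29 entries, 12 overlapped another listed transcript of the same gene with an input of at least 1 FPKM, and of the 26 CaCo-2 entries 6 did.

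**Figure D1:**
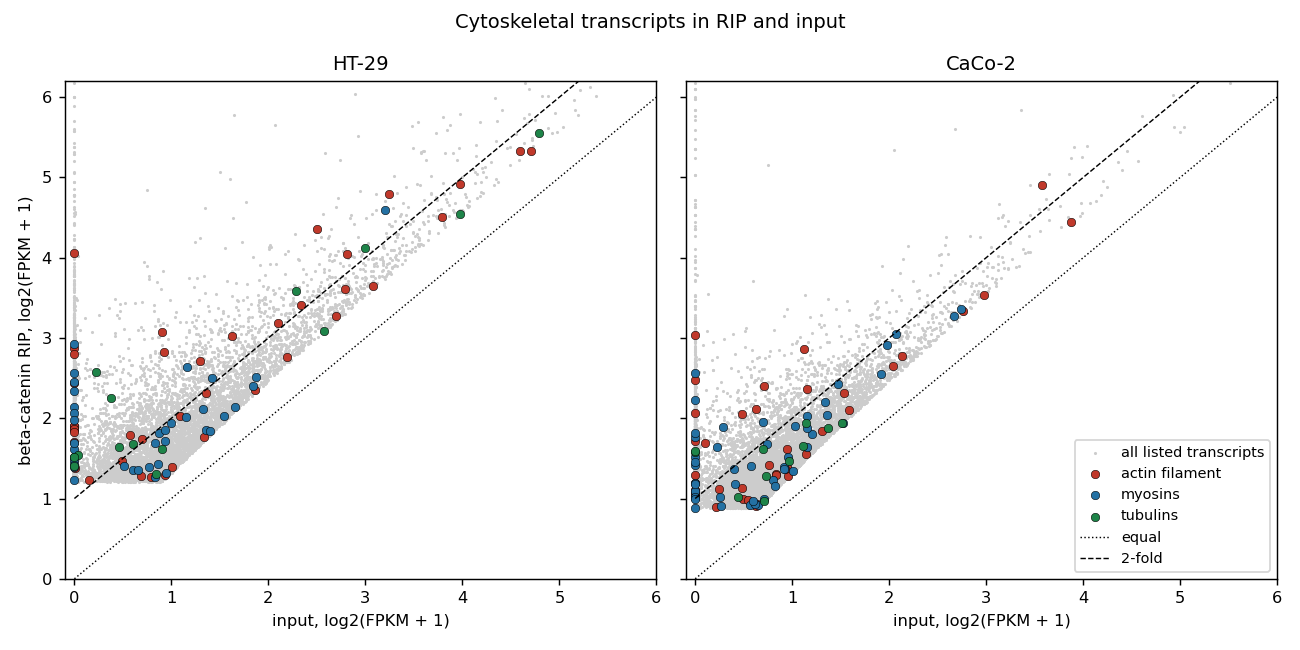
Level of each listed transcript in input (horizontal) and in the beta-catenin RIP (vertical), both as log2(FPKM + 1), for HT-29 (left) and CaCo-2 (right), 1 library each. Coloured points are the 91 and 101 cytoskeletal transcripts, grey points all listed transcripts; both axes end near 6, beyond which only grey points lie. The coloured points spread over the same wedge as the grey ones, on both sides of the 2-fold line, with a column at an input of 0.

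The marker check used fixed lists. Of 16 colon epithelial markers, 8 had a listed transcript in HT-29 and 6 in CaCo-2, among them CDH1, KRT8, KRT18, KRT19, LGALS4 and TSPAN8 in both lines. Their summed level was 194 FPKM in the HT-29 RIP against 78.2 in its input, and 88.8 in the CaCo-2 RIP against 38.6. Of the muscle, fibroblast, blood and endothelial markers 0 were listed, and of the neuronal ones only TUBB3, in HT-29. Because transcripts below 1.5-fold were not used here, a marker without an entry may still be present in the libraries.

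The cytoplasmic actins, ACTB and ACTG1, gave some of the highest listed levels of the group, and the listed isoforms were mostly other than the annotated coding ones. In HT-29, 7 of their 8 listed transcripts were classed as retained intron, nonsense-mediated decay or processed transcript, the last a class without a reading frame. Of all listed HT-29 transcripts, 50.4% were in a class other than protein coding. ACTB (hg19, chromosome 7, minus strand) was led by a nonsense-mediated-decay isoform, ENST00000425660 (5566787 to 5570232), at 39.1 FPKM in the RIP against 25.0 in input. A retained-intron isoform, ENST00000493945 (5567372 to 5569294), had 19.5 against 4.66 FPKM, a log2 ratio of 1.86. ENST00000473257, a processed transcript (5567781 to 5570235), was at 15.7 with input listed at 0, and the retained-intron ENST00000484841 at 2.60 with input at 0. So the most abundant of the 4 listed ACTB isoforms had the lowest ratio. ENST00000473257, at 0 in input, covers a stretch that lies almost wholly within that isoform, which was at 25.0 there. Isoforms below 1.5-fold are absent from the listing, and no coding ACTB isoform was listed, so the coding level is not known here.

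ACTG1 (chromosome 17, minus strand) was also listed mainly by other classes in HT-29. Its retained-intron isoforms ENST00000574671 (79477025 to 79478874) and ENST00000576917 (79477018 to 79479806) were at 26.6 against 8.48 and 15.5 against 5.99 FPKM. The nonsense-mediated-decay isoform ENST00000572105 was at 5.54 against 1.46. The listed coding isoform, ENST00000575842, was at 5.79 against 3.56, a log2 ratio of 0.57, below the other 3, which lay between 1.23 and 1.54.

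In CaCo-2 the actins had 6 entries, 3 of them at least 2-fold higher, beside 40.8% of all listed transcripts. ACTB was led by ENST00000464611, a processed transcript of the gene's 3′ end (5566782 to 5567729), at 29.0 FPKM in the RIP against 10.9 in input, the highest RIP level of any cytoskeletal transcript in this line. ENST00000473257 was at 7.24 with input again at 0, and ENST00000484841 at 1.46 against 0.782. For ACTG1, the retained-intron ENST00000576917 was at 9.05 against 5.77, a coding isoform, ENST00000571691, at 5.86 against 3.39, and the retained-intron ENST00000576214 at 1.13 against 0. ACTB and ACTG1 are close in coding sequence and have many processed pseudogenes, and how the authors' counting shared reads among these copies was not tested.

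The alpha-actinins ACTN1 and ACTN4 cross-link actin filaments, and ACTN4 is also found in nuclei. HT-29 listed 2 of their transcripts, and both were at least 2-fold higher, beside 56.0% of all listed there. CaCo-2 listed 6, of which 5 reached 1 FPKM and 4 were at least 2-fold higher, beside 40.8%. All 6 transcripts at 2-fold or more were coding isoforms, between 1.13 and 4.57 FPKM in the RIP. Every listed alpha-actinin entry except 1 processed transcript of CaCo-2 was coding, so this leaves little room for another class. ACTN1 (chromosome 14) gave the only cytoskeletal entry with a q-value at or below 0.05 in the authors' deposited table: ENST00000394419 (69341040 to 69445956) was at 4.57 FPKM in the CaCo-2 RIP with input listed at 0 and a q of 0.00396. Across all listed transcripts of that line 2.24% reached this q, so 1 of 101 is no higher a share. Other ACTN1 entries of CaCo-2 were at 3.19 against 0 (ENST00000553370), 1.66 against 0.695 (ENST00000556203), 1.13 against 0 (ENST00000376839) and 0.984 against 0.402 FPKM (ENST00000556433). The other 2 ACTN1 coding isoforms at 0 in input lie within the span of ENST00000394419, and how fragments were divided among the 3 was not tested. In HT-29, ACTN1 was listed by another coding isoform, ENST00000538545, at 2.35 against 0.620. ACTN4 (chromosome 19) was at 2.46 against 0.483 in HT-29 (ENST00000586538) and at 4.26 against 0.637 in CaCo-2 (ENST00000424234).

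The Arp2/3 complex and the other actin-related proteins had 18 listed transcripts in each line, the HT-29 ones from 11 gene names and the CaCo-2 ones from 10. At least 2-fold higher were 8 of 18 in HT-29, beside 56.0% of all listed transcripts, and 6 of the 16 that reached 1 FPKM in CaCo-2, beside 40.8%. ARPC1B, a subunit of the complex (chromosome 7, ENST00000252725, 98972298 to 98992424), was the most abundant, with 39.3 FPKM in RIP and 23.1 in input of HT-29, and 20.7 and 13.7 in those of CaCo-2. Its log2 ratios were 0.74 and 0.56, both below 2-fold. Shorter ARPC1B entries were listed at 0 in input: ENST00000458033 at 6.31, ENST00000417330 at 4.42 and ENST00000463078 at 2.63 FPKM in the RIP of HT-29, and ENST00000431816 at 1.29 in that of CaCo-2. All 4 lie inside the span of ENST00000252725.

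ACTR2 and ACTR3 are the actin-like subunits from which a new branch grows. The ACTR2 coding isoform ENST00000377982 (chromosome 2, 65454971 to 65497280) had 7.42 FPKM in the HT-29 RIP against 0.868 in input, a log2 ratio of 2.17. The same isoform was at 10.6 against 6.85 in CaCo-2, a log2 ratio of 0.57. The RIP levels of the 2 lines were thus closer to each other than the input levels, though whether the tables share a scaling is not given in the sources used. ACTR3 was at 21.8 against 12.8 in HT-29 through a coding isoform (ENST00000536059), and at 1.19 against 0.392 in CaCo-2 through a retained-intron entry (ENST00000484165).

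Among the remaining Arp2/3 subunits, the full coding isoform of ARPC5 had 7.13 FPKM in the HT-29 RIP against 2.07 in input (ENST00000294742, chromosome 1, 183595593 to 183604892), the only entry of this family at 2-fold or more with 1 FPKM or more on both sides. A retained-intron entry of ARPC4 was at 8.68 against 5.47 in HT-29. ARPC4-TTLL3, a read-through into a neighbouring tubulin ligase gene, was at 6.07 against 0.894 there through a nonsense-mediated-decay isoform. ARPC2 and ARPC3 were listed in CaCo-2 by retained-intron entries alone, 3 each. Those of ARPC2 lay between 1.44 and 2.58 FPKM in the RIP, and those of ARPC3 between 0.976 and 1.94. Outside Arp2/3, ACTR1A and ACTR10 belong to dynactin, the cofactor of the microtubule motor dynein, and ACTR6 to a nuclear chromatin remodelling complex. ACTR10 had entries at 4.11 against 2.62 FPKM, as a nonsense-mediated-decay isoform, and at 2.73 against 0, as a retained intron, in HT-29. In CaCo-2 another ACTR10 isoform was at 3.30 against 2.0. ACTR1A was at 3.99 against 1.55 in HT-29 and, by a different isoform, at 1.16 against 0 in CaCo-2. ACTR6 had 2 entries in HT-29, at 2.75 against 0 and 1.77 against 0.407, and 3 in CaCo-2 at 2.30, 1.09 and 1.05 FPKM, each with input listed at 0.

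Cofilins and profilins set the turnover of actin, and cofilin is also known to carry actin into the nucleus. PFN1, the main profilin of most cells, was listed by the same coding isoform in both lines (ENST00000574872, chromosome 17, 4848962 to 4850764), at 11.5 against 7.46 FPKM in HT-29 cells and 5.30 against 3.10 in CaCo-2 cells. PFN2 was at 9.66 against 4.06 in HT-29 (ENST00000452853), a log2 ratio of 1.07, and a shorter coding isoform was at 2.55 against 0. In CaCo-2, PFN2 had 5 entries between 0.863 and 2.22 FPKM in the RIP and between 0 and 0.920 in input. CFL1 was listed only in CaCo-2, at 3.96 against 1.89. CFL2 was at 2.25 against 0 in HT-29 and, as a nonsense-mediated-decay isoform (ENST00000422678, chromosome 14, 35181243 to 35183783), at 4.15 against 1.23 in CaCo-2.

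Tropomyosins wind along actin filaments. TPM3 (chromosome 1) was the most abundant, with a coding isoform, ENST00000341485 (154128840 to 154155684), at 29.3 FPKM in the HT-29 RIP against 14.7 in input. Retained-intron entries of TPM3 were at 11.2 against 5.90 (ENST00000473036) and at 5.96 against 0 (ENST00000505010, 154144358 to 154148718). ENST00000505010 was listed again in CaCo-2, with 6.25 in the RIP and 1.17 in input, so its RIP values were closer than its input values, across tables whose common scaling is not known. In TPM1, the retained-intron ENST00000558868 (chromosome 15, 63340736 to 63353297) had 2.41 against 1.53 FPKM in HT-29 cells and at 3.34 against 0.541 in CaCo-2 cells, where a coding isoform, ENST00000559556, was at 3.13 against 0.396 and another, ENST00000317516, at 1.01 against 0.00115. TPM4 was at 8.09 against 3.30 in HT-29 (ENST00000538887), a log2 ratio of 1.08, and at 0.902 against 0.553 in CaCo-2 through a retained-intron entry. All 4 tropomyosin entries of CaCo-2 that reached the minimum were at least 2-fold higher, beside 40.8% of all listed transcripts, and 4 of 8 in HT-29, beside 56.0%.

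Conventional myosins are hexamers of heavy and light chains that contract actin bundles; MYH9 and MYH10 encode the heavy chains of non-muscle myosin, and MYL6 and the MYL12 genes its light chains. MYH9 (chromosome 22) was listed in both lines by the same pair of short processed transcripts and by no coding isoform. ENST00000472210 (36716286 to 36717967) was at 4.92 FPKM in the RIP of HT-29 and 1.68 in that of CaCo-2, with input at 0 in both. ENST00000495928 (36696956 to 36697760) was at 4.04 against 0 in HT-29 cells and 2.73 against 1.05 in CaCo-2 cells. MYH10 was listed in CaCo-2 alone, at 3.11 against 1.56. A short coding entry of MYH7B, a myosin heavy chain of striated muscle, was at 2.12 against 0.166 there (chromosome 20, 33589048 to 33590240). Of the muscle markers named above, 0 had an entry.

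Among the light chains, MYL6 (chromosome 12) had the highest levels. Its coding isoform ENST00000348108 (56552140 to 56555371) had 23.2 FPKM in the HT-29 RIP against 8.21 in input, a log2 ratio of 1.39. The retained-intron ENST00000548725 (56552148 to 56554127) was at 5.22 against 1.23 in HT-29 cells and 7.24 against 3.19 in CaCo-2 cells, with log2 ratios of 1.48 and 0.98. The other 3 light chain entries of HT-29 lay between 0.37 and 0.65 on the log2 scale, MYL12A among them at 4.71 against 2.65 and 3.39 against 2.15 FPKM. The MYL12A entry at 4.71 was classed as retained intron. In CaCo-2, MYL12B was at 2.53 against 0, MYL5 at 1.65 against 0.488 and a nonsense-mediated-decay isoform of MYL6 at 1.27 against 0.327.

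Unconventional myosins, which move cargo and membranes along actin, were the most numerous family: 30 transcripts of 10 genes in HT-29 and 36 of 13 genes in CaCo-2. Most lay at 1 to 5 FPKM in the RIP, with medians of 2.40 in HT-29 and 1.86 in CaCo-2. In HT-29, 13 of 30 were at least 2-fold higher, beside 56.0% of all listed transcripts, and 12 of these 13 had input listed at 0, beside 56.7% of all transcripts at 2-fold or more. In CaCo-2, 11 of the 31 that reached 1 FPKM were, beside 40.8%, and 8 of the 11 had input at 0, beside 64.9%. With at least 1 FPKM on both sides, 2-fold was passed by 1 of 7 entries in HT-29, beside 25.2% of all, and by 0 of 12 in CaCo-2, beside 13.1%.

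The class I myosins link membranes to actin, and MYO1A and MYO7B are known from the microvilli of intestinal cells. MYO1C, which has a nuclear isoform, had 6 entries in HT-29 on chromosome 17. Its coding isoform ENST00000545534 (1368707 to 1388661) was at 4.68 FPKM in the RIP against 1.67 in input, the only unconventional myosin past 2-fold with at least 1 FPKM on both sides. In CaCo-2 a processed transcript of MYO1C was at 4.36 against 1.77. MYO1D was listed by the coding isoform ENST00000579584 (30921221 to 31204162) in both lines, at 3.08 against 1.91 in HT-29 cells and 8.64 against 5.37 in CaCo-2 cells. Without the added 1 FPKM, RIP over input was 1.61 in both lines, near the 1.5-fold at which the tables begin. With it the log2 ratios were 0.48 and 0.60. Other MYO1D entries were a processed transcript at 4.46 against 0 in HT-29 (ENST00000581059) and a retained intron at 6.53 against 2.93 in CaCo-2 (ENST00000577352). MYO1E reached 9.28 against 5.70 in CaCo-2 through a retained-intron entry. A short coding MYO1E isoform, ENST00000559489 (chromosome 15, 59501008 to 59510495), had input at 0 in both lines and was at 1.35 FPKM in the RIP of HT-29 and 4.91 in that of CaCo-2. MYO1A was listed in CaCo-2 at 2.20 against 0.672 through a retained-intron entry, and MYO7B in HT-29 at 2.24 against 0.

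MYO19, a myosin that sits on mitochondria, had more entries than any other gene, 7 in HT-29 and 6 in CaCo-2, spread over chromosome 17 from 34851484 to 34891305. In HT-29, 5 of the 7 were retained-intron entries, and 4 of these lay between 2.28 and 3.03 FPKM in the RIP and between 0.830 and 1.56 in input. The fifth, ENST00000588727 (34861236 to 34863456), was at 3.19 with input at 0. The coding ENST00000589404 (34871761 to 34890046) was at 3.39 against 0 in HT-29 cells and at 1.02 against 0.192 in CaCo-2 cells. The MYO19 entries of CaCo-2 ranged from 0.896 to 2.68 FPKM in the RIP. MYO18A gave the highest ratio of the family in HT-29, at 6.60 against 0 through a processed transcript at one end of the gene's span (ENST00000532867, 27401766 to 27406794). In CaCo-2 a long coding MYO18A isoform was at 1.86 against an input of 0.000407, which is in practice an input of 0.

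Further unconventional myosins were listed in 1 line or at low level. MYO9A and MYO9B, which switch off the GTPase RhoA, had 5 entries in HT-29 between 1.41 and 4.28 FPKM in the RIP, led by MYO9A at 4.28 against 2.58, and 4 in CaCo-2 between 0.903 and 1.29. MYO9B shared the retained-intron ENST00000601749 between lines, at 1.41 against 0.782 and 0.903 against 0.532. MYO5B, a motor of apical recycling in gut epithelium, was at 2.59 against 1.63 in HT-29. MYO6, which moves towards the minus end of actin, was in CaCo-2 at 2.89 against 0.619 and 2.85 against 1.87, and MYO10, a motor of filopodia, at 2.49 against 1.31. MYO7A was at 1.57 against 0.888 in CaCo-2, and MYO15B at 3.06 against 1.22 there. Other MYO15B isoforms were at 1.72 and 1.63 against 0 in HT-29.

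Alpha-tubulins had 8 entries of 4 genes in HT-29 and 2 entries of 2 genes in CaCo-2. TUBA1B, a widely expressed alpha-tubulin (chromosome 12), gave the highest RIP level of all cytoskeletal transcripts: ENST00000550367 (49522237 to 49525178) had 46.0 FPKM in the HT-29 RIP against 26.7 in input. A longer isoform, ENST00000336023, was at 22.3 against 14.7. Both had low ratios, 0.77 and 0.57. TUBA1C (ENST00000301072, 49658690 to 49667109) had 16.4 against 6.96 FPKM, a log2 ratio of 1.13, with a q of 0.165 in the authors' deposited table, the lowest of any HT-29 member. TUBA4A was listed in both lines by the same processed transcript (ENST00000498660, chromosome 2, 220115451 to 220118623), at 10.96 against 3.87 in HT-29 cells and 2.68 against 1.57 in CaCo-2 cells.

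TUBA1A, the alpha-tubulin of neurons and developing tissue, was low in both libraries of HT-29 but gave the 2 highest ratios among tubulins. Its 3 coding entries were at 4.98 against 0.168 (ENST00000550767), 3.75 against 0.297 (ENST00000546918) and 2.12 against 0.376 FPKM (ENST00000301071). In CaCo-2 a retained-intron TUBA1A entry was at 1.99 against 0. TUBA1A, TUBA1B and TUBA1C are nearly identical in coding sequence, and how reads were shared among them was not tested. Beta-tubulins were few: TUBB4B was at 7.51 against 4.95 and TUBB3 at 2.07 against 0.865 in HT-29. In CaCo-2 TUBB was at 1.75 against 0.959 and TUBB6 at 2.05 against 0.626 and 2.02 against 0. The TUBB4B entry and the TUBB6 entry at 2.05 were classed as retained intron, the others as coding.

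Gamma-tubulin genes nucleate microtubules at centrosomes. TUBGCP2, a core ring subunit, shared the processed transcript ENST00000477923 (chromosome 10, 135093144 to 135095026) between lines. That entry was at 1.86 against 0 FPKM in HT-29 cells and 2.85 against 1.2 in CaCo-2 cells. The long coding isoform of TUBGCP2 was at 1.92 against 0.0251 in HT-29. A nonsense-mediated-decay isoform of TUBGCP2 was at 1.44 against 0.661 in CaCo-2. TUBGCP4 was at 1.66 against 0 in HT-29 through a coding isoform. In CaCo-2 a different TUBGCP4 isoform, of the nonsense-mediated-decay class, was at 1.02 against 0.353. A processed transcript of TUBGCP6 was at 1.47 against 0.796 in HT-29. In CaCo-2, TUBG2 was at 2.15 against 1.16, TUBGCP3 at 2.85 against 1.84 and TUBGCP5 at 0.954 against 0.630. Those of TUBG2 and TUBGCP3 were retained-intron entries and that of TUBGCP5 a processed transcript. Over all tubulins, 9 of 14 entries were at least 2-fold higher in HT-29 and 2 of 10 that reached 1 FPKM in CaCo-2, beside 56.0% and 40.8% of all listed transcripts. Of the 2 in CaCo-2, both had input at 0. The difference between the lines was not tested, and it concerns RIP over input and not the level of an RNA. For the levels themselves, bulk libraries cannot tell fewer cells with an RNA from less of it per cell.

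**Figure D2:**
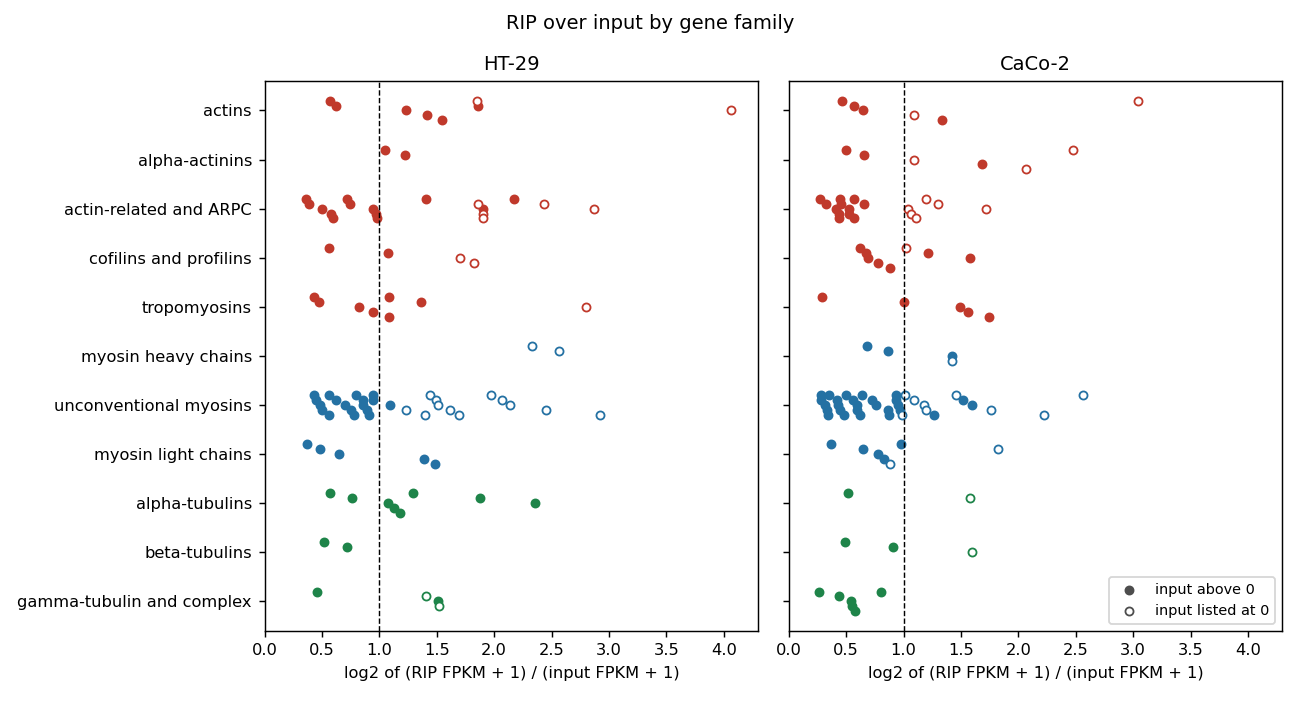
Log2 of (RIP FPKM + 1) over (input FPKM + 1) for each cytoskeletal transcript, by family, in HT-29 (left) and CaCo-2 (right); filled points have input above 0, open points have input listed at 0, and the dashed line marks 2-fold. Among unconventional myosins 12 of 13 points right of the line are open for HT-29 and 8 of 11 for CaCo-2. The 6 alpha-tubulin points of HT-29 right of it are all filled, but only 2 of them have at least 1 FPKM in both libraries.

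In all, 17 cytoskeletal transcripts of 15 genes were listed in both lines, 18.7% of the HT-29 entries and 16.8% of those of CaCo-2. Over the whole tables the shares were 19.5% and 16.1%. By gene, 33 were listed in both lines, 76.7% of those of HT-29 and 66.0% of those of CaCo-2, beside 59.2% and 51.6% over the whole tables. For 18 of the 33 genes no transcript was common to both tables, so the gene recurred through different isoforms, as did 55.2% of all 3843 genes listed in both lines. HT-29 alone listed 10 genes, among them TUBA1B, TUBA1C and TUBB4B, and CaCo-2 alone listed 17, among them CFL1, ARPC3, MYH10, MYO1A and MYO6.

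Of the 17 shared transcripts, 16 reached 1 FPKM in both lines, and 4 of these (25.0%) were at least 2-fold higher in both, beside 30.0% of all transcripts listed in both lines. The 4 were ACTB ENST00000473257, TPM3 ENST00000505010, MYH9 ENST00000472210 and MYO1E ENST00000559489. Each had input listed at 0 in at least 1 line, and with at least 1 FPKM in all 4 libraries 0 of 6 remained, beside 12.7% of all. A further 8 of the 16 passed in HT-29 alone, beside 32.1% of all shared transcripts, and 1, TPM1, in CaCo-2 alone, beside 12.7%. Input was at 0 in both lines for 3 of the 17, beside 11.7% of all, and in HT-29 alone for 5, beside 17.5%. The log2 ratio was higher in HT-29 for 13 of the 17, with medians of 1.48 in HT-29 and 0.76 in CaCo-2. Over all 1928 transcripts listed in both lines it was higher in HT-29 for 1296, with medians of 1.17 and 0.88, so a gap in this direction ran through the whole tables.

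**Figure D3:**
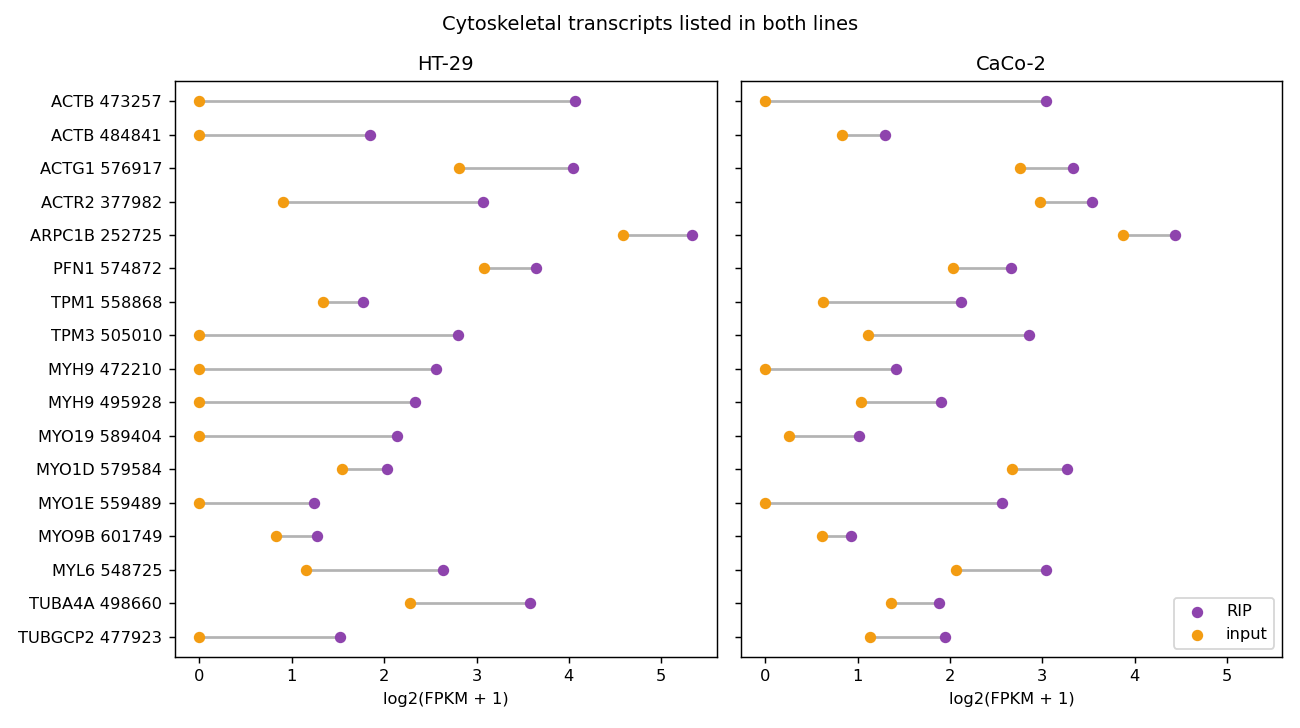
RIP (purple) and input (orange) level, as log2(FPKM + 1), of the 17 cytoskeletal transcripts listed in both lines, named by gene and the last 6 digits of the transcript ID, in HT-29 (left) and CaCo-2 (right). Purple lies right of orange in every row, as the tables require. In 3 rows, 1 each of ACTB, MYH9 and MYO1E, the input point sits at 0 in both lines, and ACTR2 has a long bar in HT-29 and a short one in CaCo-2.

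The classes of transcript differed in share from the tables they came from. Retained-intron entries made up 30 of 91 cytoskeletal transcripts in HT-29 (33.0%), beside 17.0% of all listed transcripts, and 36 of 101 in CaCo-2 (35.6%), beside 22.7%. Protein-coding entries were 41 (45.1%) and 40 (39.6%), beside 49.6% and 43.0%. The share of retained-intron entries depends on how many such isoforms are annotated for these genes, which was not analysed here. Retained-intron entries reached 2-fold over input in 12 of 30 cases in HT-29 (40.0%, beside 52.0% of all retained-intron entries) and in 8 of 29 that reached 1 FPKM in CaCo-2 (27.6%, beside 32.0%). For protein-coding entries the counts were 25 of 41 in HT-29 (61.0%, beside 53.2%) and 18 of 37 in CaCo-2 (48.6%, beside 42.0%). Processed transcripts passed in 10 of 15 cases in HT-29 (66.7%, beside 63.3%) and in 7 of 13 cases in CaCo-2 (53.8%, beside 45.1%). Of the 15 listed in each line, 9 in HT-29 had input at 0 (60.0%, beside 39.8%) and 6 in CaCo-2 (40.0%, beside 34.7%). The retained-intron entries were numerous among the unconventional myosins, with 14 of 30 in HT-29 cells and 13 of 36 in CaCo-2 cells, and among the Arp2/3 family of CaCo-2, 10 of 18.

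**Figure D4:**
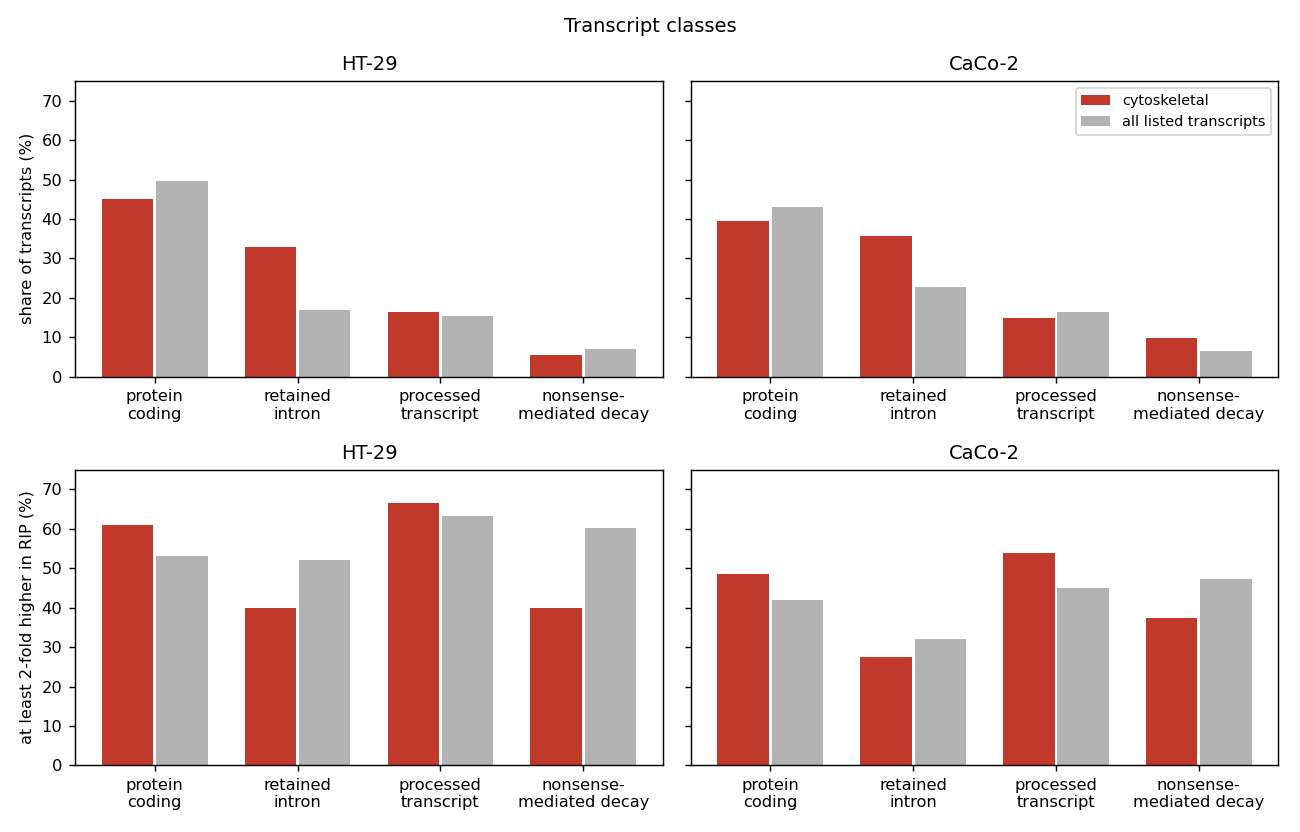
Share of each transcript class (top) and percent of that class at least 2-fold higher in the RIP among entries that reached the minimum (bottom), for cytoskeletal transcripts (red) and all listed transcripts (grey), in HT-29 (left) and CaCo-2 (right). The red bar for retained introns is above the grey one in the top panels and below it in the bottom panels.

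The authors' deposited table gives a p-value and a q-value for each transcript, from 1 library per side. Among the cytoskeletal transcripts, q was at or below 0.05 for 0 of 91 in HT-29, beside 3.08% of all listed transcripts, and for the single ACTN1 isoform in CaCo-2. The unadjusted p was at or below 0.05 for 8 in HT-29 (beside 17.0% of all) and 5 in CaCo-2 (beside 14.3%). In the authors' deposited table those of HT-29 were isoforms of ACTR2, ACTR6, ARPC5, CFL2, TPM3, MYO1C, TUBA1C and TUBGCP4, and those of CaCo-2 isoforms of ACTN1, ACTR6, CFL2, MYO1E and MYO7A. All 8 of HT-29 and 4 of the 5 of CaCo-2 were coding isoforms, beside 70.1% and 70.6% of all transcripts at that p. Some transcripts at 2-fold or more had a high p in the authors' deposited table, and others a low one. The ACTB isoform at 19.5 against 4.66 FPKM had a p of 0.872 there, and the one at 29.0 against 10.9 a p of 0.926. For the ACTR2 isoform of HT-29, with a log2 ratio of 2.17, the p in that table was 0.0240. The median deposited p was 0.174 for cytoskeletal coding isoforms and 0.560 for retained-intron ones in HT-29. In CaCo-2 it was 0.334 for the coding and 0.543 for the retained-intron isoforms in the authors' deposited table. Over all listed transcripts of these 2 classes it was 0.178 and 0.415 in HT-29, and 0.202 and 0.436 in the authors' deposited table of CaCo-2.

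Genes that act on these filaments were summarised from 2 lists, 114 actin regulators and 116 microtubule regulators, with 1 transcript per gene, that of highest RIP FPKM. Of the actin regulators, 60 were listed in HT-29, 36 of them at least 2-fold higher (60.0%, beside 55.6% of all genes listed). In CaCo-2 59 reached 1 FPKM and 24 were at least 2-fold higher (40.7%, beside 41.0%). Of the microtubule regulators, 59 were listed in HT-29 with 33 at 2-fold or more (55.9%), and 61 reached 1 FPKM in CaCo-2 with 32 (52.5%). The structural genes themselves, taken in the same way, gave 23 of 43 for HT-29 (53.5%) and 15 of 45 for CaCo-2 (33.3%). In both lines at least 2-fold higher were 8 of the 44 actin regulators and 15 of the 47 microtubule regulators listed in both (18.2% and 31.9%, beside 24.3% of all genes listed in both lines).

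Several regulators had clear input levels. In HT-29, both subunits of the protein that caps actin filaments were listed, CAPZA2 at 18.6 FPKM in the RIP against 3.82 in input and CAPZB at 12.8 against 2.90. CAPZA1 was at 14.8 against 7.98 through a processed transcript, a log2 ratio of 0.81. The CAPZA2 entry, like that of FLNA below, was a nonsense-mediated-decay isoform. PXN, an adapter of focal adhesions, was at 5.20 against 1.10. CTNNA1, alpha-catenin, which binds beta-catenin and actin, was at 13.5 against 4.13 through a nonsense-mediated-decay isoform (chromosome 5, 138089110 to 138269902) with a q of 0.434 in the authors' deposited table. FLNA, filamin A, was at 11.2 against 3.65 with a q of 0.0317 in that table. In CaCo-2, RDX, radixin, which ties actin to the membrane, was at 10.04 against 1.96. CORO1B, a coronin that acts on Arp2/3 branches (chromosome 11, 67205519 to 67211263), was at 18.3 against 6.10, with a q of 0.000166 in the authors' deposited table. The HT-29 libraries held the same CORO1B isoform at 28.9 FPKM (RIP) and 19.1 FPKM (input). That is below 2-fold, and its q in the deposited table was 0.338. TLN2, a talin, and LCP1, a plastin that bundles actin, followed in CaCo-2 at 6.84 against 2.71 and 6.69 against 2.67.

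Of the microtubule regulators, 28 in HT-29 cells and 16 in CaCo-2 cells had at least 1 FPKM in both libraries. Factors that fold or modify tubulin were 13 of the 28 and 9 of the 16. The same role made up 24 of the 59 microtubule regulators listed in HT-29 and 21 of the 64 listed in CaCo-2. TCP1 and CCT3 are subunits of the chaperonin that folds actin and tubulin. In HT-29 TCP1 was at 18.0 against 5.12 FPKM. The CCT3 isoform of highest level had 45.5 against 27.0 FPKM (log2 ratio 0.73) and a lesser one 5.62 against 1.5 (log2 ratio 1.41). PFDN5, a prefoldin subunit that hands on unfolded chains, was at 5.58 against 1.64, and MZT2B, of the gamma-tubulin complex, at 16.3 against 5.93. The PFDN5 and MZT2B entries were both classed as retained intron. In CaCo-2, PFDN6 was at 14.9 against 3.41, CCT2 at 4.20 against 1.10, CCT4 at 9.04 against 3.99 and PFDN1 at 4.24 against 1.72. Further regulators with q at or below 0.05 in the authors' deposited table were VBP1, CYFIP2, PARVA, KIF21A and COBL in HT-29, and TWF1, CYFIP2 and LIMK2 in CaCo-2. CYFIP2, a subunit of the complex that activates Arp2/3, was the gene common to both, by different isoforms at 1.37 and 1.31 FPKM in the RIPs and 0 in both inputs. TWF1, twinfilin, which holds actin monomers, was at 4.77 against 0 in CaCo-2, with a q of 1.11e-06 in that table. Counting any isoform, 4 of 60 actin and 2 of 59 microtubule regulators listed in HT-29 had a q at or below 0.05 there. In CaCo-2 the counts were 4 of 66 and 0 of 64. Of all listed transcripts, 3.08% in HT-29 and 2.24% in CaCo-2 reached this q. The regulator counts are per gene and these shares per transcript.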

How the data were processed

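Per the labels, nuclear lysates of HT-29 and CaCo-2 were incubated with a beta-catenin antibody, RNA-protein complexes were collected on protein G beads, and TruSeq RNA libraries were made. The submitters' processing notes name the build hg19 and the tools TopHat2 2.0.8, CASAVA 1.4, Bowtie2, Cuffdiff and Cufflinks; the annotation release, filters, strandedness and other versions are not given in the sources used. The authors deposited 1 table per line with RIP and input FPKM per Ensembl transcript; whether the lines were scaled together is not stated. The column named as a log2 fold in the deposited tables equals log2 of RIP over input where input is above 0. Each p-value and q-value was deposited by the authors and rests on 1 library per side. Starts were shifted by 1 so that coordinates count from 1. No column of sample values was left without a sample.

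Computed here, with Python 3.11.15 and pandas 2.3.3, were the ratio with a pseudocount of 1 FPKM, a filter of at least 1 FPKM in at least 1 library, and counts at 2-fold or more. The counting code was run on simulated RIP values set without noise by the same ratio. That checks the code and not the reliability of any call. With 1 library per group no test was made, and depth is unknown from these tables. Members and lists were chosen with earlier results of these data known. Named were, per family and line, the up to 4 transcripts with the highest RIP FPKM, transcripts listed in both lines, those with q at or below 0.05, those at 2-fold or more with at least 1 FPKM in both libraries, and up to 4 regulators per list and line by their highest isoform ratio with at least 1 FPKM in both; other members and regulators were named after their values were seen. Alternatives were the pseudocount, the filter, the transcript class, 1 transcript per gene and, added after seeing the data, input above 0. No transcript sequences were used here. The values of 1 gene counted among the members are not reported here.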

Additional observations from a re-analysis of the deposited data

Results flagged for a closer look

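Processed pseudogenes named after members of these families were outside the chosen genes, yet 5 of them were listed above input. In HT-29, the RIP held ACTBP2 at 2.29 FPKM and the input at 0, ACTBP11 at 1.41 against 0, ACTG1P10 at 2.58 against 1.10 and TUBBP2 at 1.36 against 0. In CaCo-2, TPM3P1 was at 1.2 against 0. In the authors' deposited table their q-values were all above 0.13. The share of their reads that came from the parent genes was not tested.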

How the results depend on the processing

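With 1 library per group no replicate could be left out, and the counts measure these libraries alone. No paired analysis was possible because the groups hold 1 library each. Of 26 alternative counts over 5 results, 7 were within 1.5 times the reported count and 19 were not; several of the 19 follow from counting fewer transcripts. For 49 transcripts at 2-fold or more in HT-29, the count was 12 with at least 1 FPKM in both libraries, 25 with coding entries alone, 23 with 1 transcript per gene and 23 with input above 0. For 36 in CaCo-2 it was 57 with a pseudocount of 0.1 FPKM, 3 with at least 1 FPKM in both libraries, 18 with coding entries, 15 with 1 per gene and 12 with input above 0. For 4 in both lines it was 8 with a pseudocount of 0.1 FPKM, 0 with at least 1 FPKM in both libraries, 1 with coding entries, 7 genes with 1 transcript per gene and 0 with input above 0. For regulator genes, 69 in HT-29 became 12 with at least 1 FPKM in both libraries and 31 with input above 0. In CaCo-2, 56 became 85 with a pseudocount of 0.1 FPKM, 8 with at least 1 FPKM in both and 30 with input above 0. The 12 were 6 of 26 actin and 6 of 28 microtubule regulators, beside 25.2% of all listed transcripts at that minimum. The 8 were 5 of 23 and 3 of 16, beside 13.1%. These whole-table shares count transcripts and not genes. For the pseudocount of 0.1 FPKM, and for regulators with input above 0, no matching whole-table share was computed. Calls thus depend on transcripts with little or no input signal, whose depth is unknown.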
